A study of Drosophila melanogaster with 12 samples.

Results

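The 8 heat shock protein genes *Hsp22*, *Hsp23*, *Hsp26*, *Hsp27*, *Hsp68*, *Hsp70Bb*, *Hsp83* and *DnaJ-1* were described in eye antennal discs and wing discs of *Drosophila melanogaster* larvae. They were chosen by name among the 17208 genes of each tissue table. Of them, 7 were found by their symbol. No row carries the symbol *Hsp70Bb*, and this gene was found by its identifier, FBgn0013278, which the tables pair with the symbol *Hsp70Ba*. The study overexpressed *fuss*, the fly homologue of the Skor corepressor genes, and set these larvae against driver-only controls. The eye antennal discs came from GMR-Gal4 > w1118 and GMR-Gal4 > UAS-*fuss* larvae of the third instar, with 3 libraries of 40 discs for each genotype. The wing discs came from nub-Gal4 > w1118 and nub-Gal4 > UAS-*fuss* larvae, also of the third instar. There were 3 libraries of 30 wing discs for each genotype. Both genotypes of a tissue carried the same driver. GMR-Gal4 is active in retinal cells posterior to the morphogenetic furrow and nub-Gal4 in the developing wing blade, so each pool of discs also held cells in which the driver was silent. No heat shock of the larvae used for RNA-seq is described in the study's methods.

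Heat shock proteins are molecular chaperones that bind unfolded proteins, hold them in solution and help them refold. When proteins unfold, the transcription factor Hsf trimerises, binds heat shock elements in the promoters of these genes and drives their transcription. Some chaperones are also made without stress. The small heat shock proteins of *Drosophila* are known to be switched on during normal development, around the ecdysone pulses of late larval and pupal life. The Hsp70 genes, in contrast, are known for very low RNA levels in unstressed flies and a very strong induction by heat.

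The values described here are the authors' mean normalized counts, 1 for each gene and tissue, taken over the 6 libraries of that tissue and thus over both genotypes. They have no replicate error, library depths are unknown, and no test between genotypes or tissues was made. The mean is a level of RNA in the whole disc pool. In such bulk samples fewer cells of a type and less RNA per cell cannot be told apart. The tables of both tissues were normalized separately, and in them 12778 genes of the eye table and 12467 genes of the wing table had a mean of at least 1. Of the 6 eye markers, *ey*, *so*, *eya*, *gl*, *elav* and *ato*, all had a lower mean in wing discs by more than 2-fold. Of the 5 wing markers, *nub*, *vg*, *ap* and *nab* were higher in wing discs by more than 2-fold, and *rn* was 1.34 times as high. The tissue labels therefore fit their markers. The eye libraries are taken as GMR-Gal4 after their genotype label and the paper, although another of their labels reads nub-Gal4.

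The members lay in the middle and at the top of the range of expression levels. *Hsp27*, *Hsp83* and *Hsp23* were among the highest genes of either tissue, *Hsp26* and *DnaJ-1* were high, *Hsp70Bb* was intermediate in eye discs and high in wing discs, and *Hsp22* and *Hsp68* were near the middle of the genes with a mean of at least 1. *Hsp27* was at rank 14 of all genes in eye discs and at rank 23 in wing discs. *Hsp83* was at rank 31 in eye discs and 37 in wing discs, and *Hsp23* was at rank 41 and 69. The 8 genes together held 0.825% of the summed means in eye discs and 0.741% in wing discs. *Hsp27*, *Hsp83* and *Hsp23* alone held 0.773% and 0.684%. *Hsp22*, *Hsp68*, *Hsp70Bb* and *DnaJ-1*, the 4 lowest in both tissues, held only 0.0205% and 0.0343%.

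**Figure D1:**
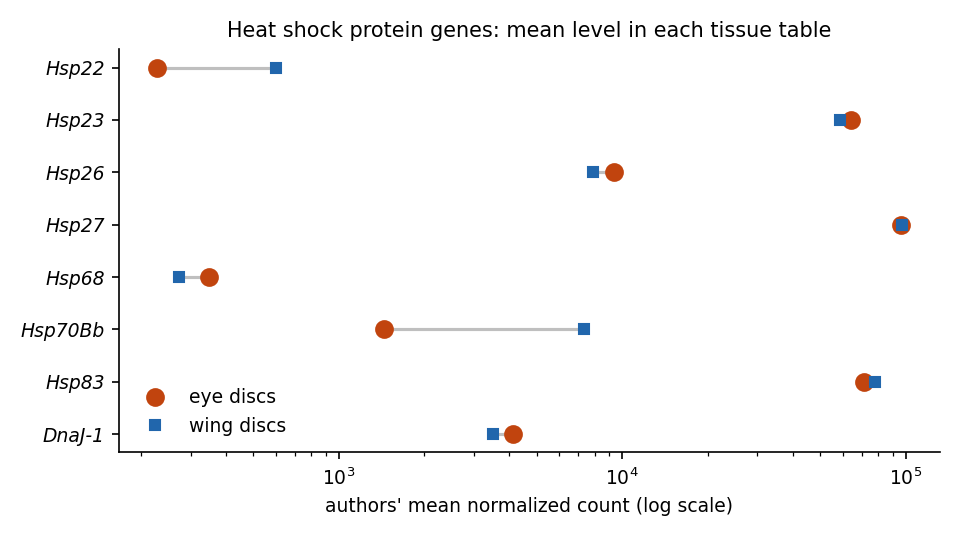
Authors' mean normalized count (log scale) of the 8 heat shock protein genes, over the 6 libraries of each tissue. Circles are eye discs and squares wing discs, and a grey line joins both values of a gene; *Hsp70Bb* and *Hsp22* lie to the right in wing discs by a wide gap, while the symbols of *Hsp27* and *Hsp83* nearly coincide.

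The small heat shock proteins, which hold unfolding proteins in a state from which other chaperones can refold them, are represented by *Hsp22*, *Hsp23*, *Hsp26* and *Hsp27*. *Hsp27*, whose product is found in the nucleus, had a mean of 96591 in eye discs and 97401 in wing discs. *Hsp23*, which encodes a cytoplasmic small chaperone, had 64181 in eye discs and 58656 in wing discs. *Hsp26*, another cytoplasmic member, had 9340 and 7868. All these levels were in the upper part of the expression range, since *Hsp26* was above 95.7% of the genes with a mean of at least 1 in eye discs and above 93.5% in wing discs. *Hsp22* encodes the mitochondrial small heat shock protein, and its mean was 227 in eye discs and 599 in wing discs. It was above 44.0% of the genes in eye discs and above 53.6% in wing discs, so that it stood in the middle of the range in which the other 3 small heat shock genes were near the top.

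Ranks, percentiles and shares of summed means are not corrected for transcript length, and ratios between levels of different genes were taken per kb of the longest annotated transcript. On this scale *Hsp23* had 72603 normalized counts per kb in eye discs and 66353 in wing discs, and *Hsp27* had 59186 and 59682. The ratio of the level of *Hsp23* to that of *Hsp27* was thus 1.23 in eye discs and 1.11 in wing discs. The order of this pair rests on the length used, because with the coding length *Hsp27* was the higher of both in either tissue. *Hsp26* followed with 9248 per kb in eye discs and 7790.1 in wing discs. *Hsp22* had 119.7 per kb in eye discs and 315 in wing discs. The level of *Hsp26* was 77.3 times that of *Hsp22* in eye discs and 24.7 times in wing discs, and with the coding length 34.4 and 11.0 times.

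These 4 genes lie together in the 67B cluster on chromosome arm 3L, which in the BDGP6.54 annotation holds 9 genes within 14184 bases, from 9371511 to 9385694. In order along the arm they are *Hsp67Bc*, *CG4456*, *Hsp22*, *CG4461*, *Hsp26*, *Hsp67Ba*, the antisense RNA gene *asRNA:CR43481*, *Hsp23* and *Hsp27*. *Hsp22* (9372931 to 9374964), *Hsp23* (9381882 to 9382765) and *Hsp27* (9384063 to 9385694) are on the plus strand, and *Hsp26* (9376418 to 9377427) is on the minus strand. The means of neighbours, not corrected for length, differed widely. *CG4461*, whose annotated end lies 124 bases from *Hsp26*, had a mean of only 1.02 in eye discs and 44.6 in wing discs. *Hsp67Ba*, on the other side of *Hsp26*, had 11979 in eye discs and 12004 in wing discs.

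**Figure D2:**
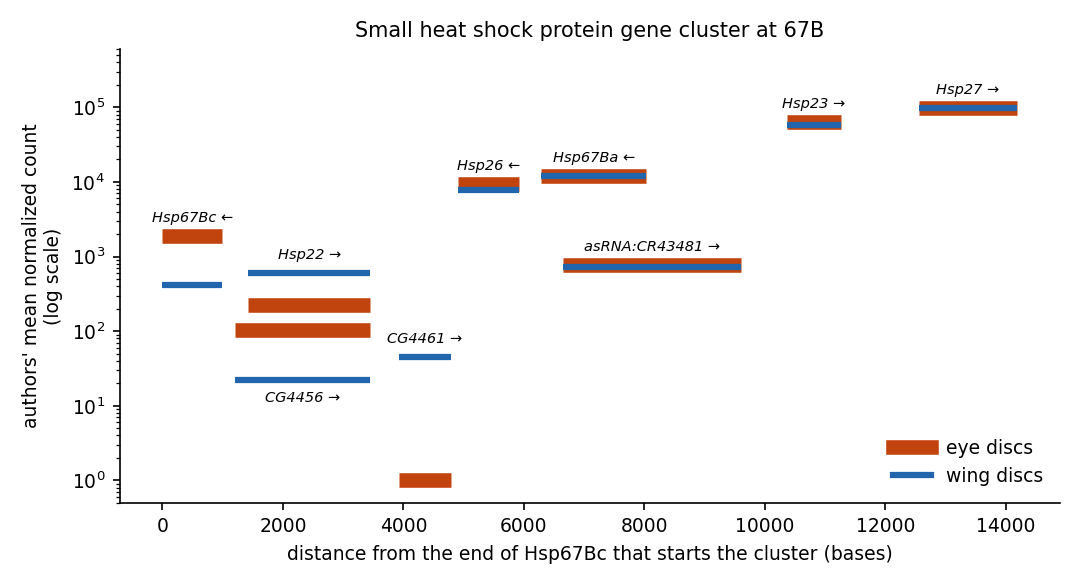
Genes of the 67B cluster by their distance in bases from the start of the cluster (x axis) and their authors' mean normalized count (y axis, log scale) in eye discs (thick bars) and wing discs (thin bars), with arrows for the strand. *Hsp23* and *Hsp27*, at the right end, have the highest means of the cluster in both tissues, whereas *Hsp22*, *CG4456* and *Hsp67Bc*, at the left end, are lower and differ most between the tissues together with *CG4461*.

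The tissue with the higher mean also differed along the cluster. After both tables were scaled to a median ratio of 1 over all genes with a mean of at least 10 in both, as set out with the ratios of the 8 genes, *Hsp67Bc* was 5.17 times as high in eye discs as in wing discs, with means of 1911 and 420. *CG4456*, an older name of which is *Hsp67Bb*, was 5.33 times as high in eye discs, with means of 104 and 22.1. *Hsp22*, whose exons lie within those of *CG4456*, had the opposite order, since its scaled ratio of wing over eye discs was 2.32. How reads were divided between these 2 genes bears on both ratios. The antisense RNA *asRNA:CR43481* had means of 770 in eye discs and 723 in wing discs.

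*Hsp22* and *CG4456* overlap on the same strand. All 1900 exon bases of *Hsp22* in the annotation are also exon bases of *CG4456*, and 1 transcript of *Hsp22* is identical to a transcript of *CG4456*. How reads were divided between both genes is therefore uncertain, and their levels are not independent. When both means were summed, the scaled ratio of wing over eye discs was 1.65 in place of 2.32. The other members share few bases with a neighbour, all of them on the opposite strand, namely *Hsp27* 49 bases with *CR43483*, *Hsp83* 15 bases with *CG14966*, and *Hsp68* 13 bases with *CG6000* and with *lncRNA:CR44097*. Whether the counting used the strand is not given in the sources used here.

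Of the 7 further genes of the small heat shock protein family, 4 had a mean of at least 10 in both tissues. None of them was higher in wing discs past 2-fold and 1, *Hsp67Bc*, was lower, and their median ratio of wing over eye discs was 0.871. Over all genes with such means, 4.51% were higher in wing discs past 2-fold and 9.04% lower. *CG14207* had means of 3206 in eye discs and 3134 in wing discs, and *l(2)efl* had 481 and 489. Both are thus far below *Hsp23* and *Hsp27* also per kb of transcript, with 2323 per kb for *CG14207* and 649 for *l(2)efl* in eye discs.

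Hsp70 proteins bind exposed hydrophobic stretches of unfolded clients and release them in cycles of ATP hydrolysis. *Hsp70Bb*, a heat-inducible copy at 12505793 to 12508139 on the plus strand of chromosome arm 3R, had a mean of 1439.9 in eye discs and 7354 in wing discs. It was above 70.4% of the genes with a mean of at least 1 in eye discs and above 92.8% in wing discs, and its rank was 3789 and 893. The scaled ratio of wing over eye discs was 4.49, the highest of the 8 genes. Vectors of Gal4 and UAS transgenes can carry Hsp70 sequence, and the tissues carried different drivers. Whether transgene RNA was counted in the Hsp70 means was not tested. The inducible paralogue *Hsp68*, at 24055080 to 24057310 on the minus strand of the same arm, had a mean of 348 in eye discs and 273 in wing discs. It stood above 48.2% and 45.1% of the genes, and its scaled ratio was 0.689, so that it did not share the higher level of *Hsp70Bb* in wing discs. Per kb of transcript, the level of *Hsp70Bb* was 3.93 times that of *Hsp68* in eye discs and 25.6 times in wing discs.

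*Hsp70Bb* is 1 of 6 annotated Hsp70 copies, which are nearly identical in sequence. *Hsp70Aa*, the copy with the next highest mean, had 139 in eye discs and 572 in wing discs, with a scaled ratio of 3.61. The means of the other 4 copies were below 10 in both tissues. *Hsp70Ab* had 9.13 in eye discs and 9.86 in wing discs, *Hsp70Bc* had 7.39 and 5.52, *Hsp70Ba* had 3.13 and 0.553, and *Hsp70Bbb* had 2.98 and 1.29. *Hsp70Bb* alone thus held 89.9% of the summed mean of the copies in eye discs and 92.6% in wing discs, and together with *Hsp70Aa* it held 98.6% and 99.8%.

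How the reads were shared out among near-identical copies is uncertain, and the level of 1 copy is best read together with the others. Among the rows, 3 identifiers share the symbol *Hsp70Ba* and 2 share the symbol *Hsp70Ab*, so that the symbol alone does not tell the copies apart. The sum over the 6 copies does not depend on how reads were split among them. It was 1602 in eye discs and 7943 in wing discs, and its scaled ratio of wing over eye discs was 4.36.

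**Figure D3:**
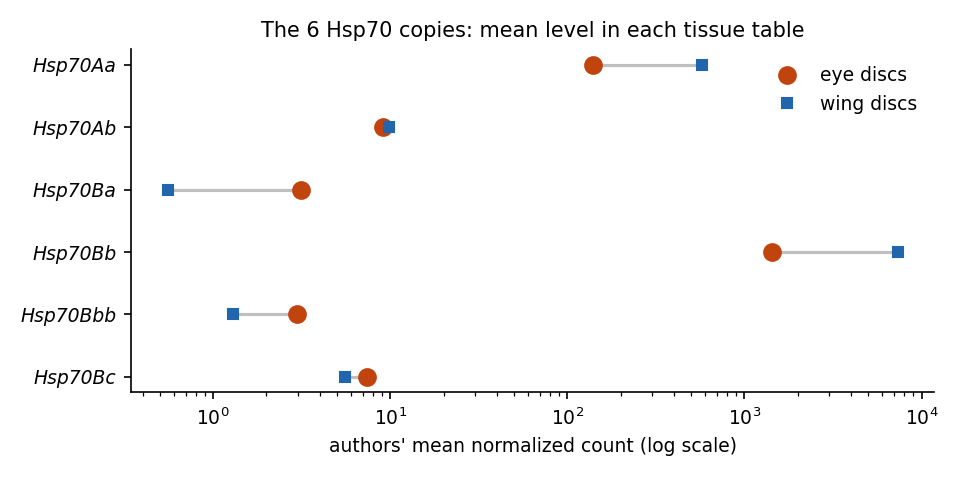
Authors' mean normalized count (log scale) of the 6 annotated Hsp70 copies in eye discs (circles) and wing discs (squares). *Hsp70Bb* and *Hsp70Aa* lie far to the right of the other 4 copies, which are all below 10, and both are higher in wing discs.

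The most highly expressed constitutive relatives of Hsp70 had higher means than the Hsp70 copies and did not differ by 2-fold between the tissues. *Hsc70-4*, the main cytoplasmic Hsc70 protein, had a mean of 155125 in eye discs and 172948 in wing discs, with a scaled ratio of 0.98. Per kb, its level was 96.1 times that of the summed Hsp70 copies in eye discs and 21.6 times in wing discs. *Hsc70-3*, the BiP chaperone of the endoplasmic reticulum, had 48963 and 51049, and *Hsp110* (listed as *Hsc70Cb* in the tables), a nucleotide exchange factor of Hsp70 proteins, had 14708 and 16619. Of the 6 genes of this list 4 had a mean of at least 10 in both tissues, with a median ratio of 0.987. Of these, 0 were past 2-fold in either direction, beside 13.6% of all genes with such means. With so few genes, this count does not set the list apart.

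*Hsp83* encodes the cytoplasmic Hsp90 chaperone. The gene is expressed without stress and further induced by heat. It lies at 3192969 to 3197059 on the plus strand of 3L and had a mean of 71106 in eye discs and 77669 in wing discs. It stood above 99.8% and 99.7% of the genes. Per kb, *Hsp83* had 24022 normalized counts in eye discs and 26239 in wing discs, and the level of *Hsp27* was 2.46 times as high in eye discs and 2.27 times in wing discs, or 4.57 and 4.22 times with the coding length. The level of *Hsp83* per kb was 39.2 times that of *Hsp70Bb* in eye discs but 8.37 times in wing discs.

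The list of Hsp90 proteins and their co-chaperones holds 9 measured genes with *Hsp83*, with a median ratio of 1.02. Of them, 0 were past 2-fold in either direction, beside 13.6% of all genes with a mean of at least 10 in both tissues. *Gp93*, the Hsp90 of the endoplasmic reticulum, had means of 30868 in eye discs and 36203 in wing discs. The co-chaperone gene *p23* had 14763 and 15477.

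*DnaJ-1* encodes an Hsp40 protein, which delivers clients to Hsp70 and stimulates its ATPase. It lies at 5750029 to 5752189 on the minus strand of 3L and had a mean of 4120 in eye discs and 3485 in wing discs, above 88.1% and 83.7% of the genes. Its level per kb was 1907 in eye discs and 1613 in wing discs. The level of *Hsp83* per kb was 12.6 times as high as that of *DnaJ-1* in eye discs and 16.3 times in wing discs, or 8.04 and 10.4 times with the coding length. *DnaJ-1* was above *Hsp70Bb* per kb in eye discs and below it in wing discs.

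The Hsp40 list holds 9 genes with *DnaJ-1*, with ratios from 0.651 to 1.19 and a median of 0.934. Of them, 0 were past 2-fold, beside the same 13.6% of all genes. *Droj2*, the highest of them, had means of 13926 in eye discs and 14603 in wing discs, *Tpr2* had 8507 and 11500, and *Csp*, the cysteine string protein of synaptic vesicles, had 5918 and 6333. Chaperonins, which enclose a client in a ring to fold it, had 10 of 13 measured genes with a mean of at least 10 in both tissues. Their ratios ran from 1.06 to 1.22 with a median of 1.095, and 0 were past 2-fold, again beside 13.6% of all genes. *CCT5* had means of 17328 and 20977, *CCT2* had 15472 and 18591, and *Hsp60A*, the mitochondrial chaperonin, had 14796 and 20549.

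*Hsf*, which encodes the transcription factor that induces these genes, had a mean of 3156 in eye discs and 3291 in wing discs, with a scaled ratio of 0.92. The heat-inducible noncoding RNA *lncRNA:Hsromega* had 3074 and 3017. *ref(2)P*, the fly p62 homologue that binds ubiquitinated proteins for autophagy, had 2991 and 3115. Of the 4 measured genes of this list 0 were past 2-fold in either direction, beside 13.6% of all genes, and their median ratio was 0.890.

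**Figure D4:**
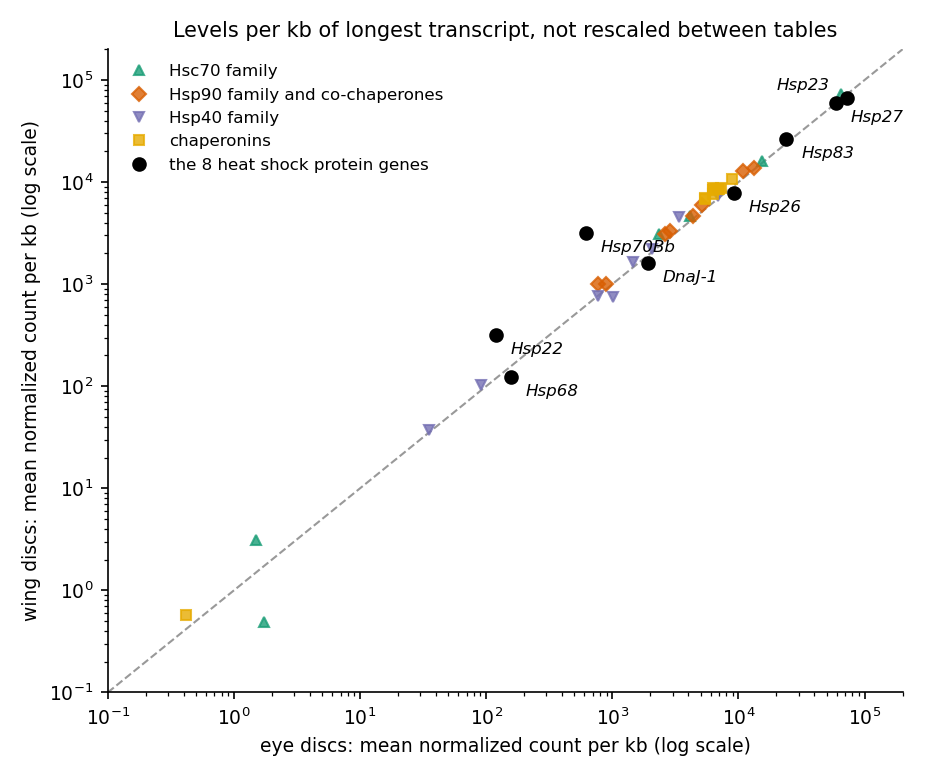
Authors' mean normalized count per kb of longest transcript in eye discs (x axis) and wing discs (y axis), both on log scales and not rescaled between the tables, for the 8 heat shock protein genes (black) and 4 families of chaperones; the dashed line marks equal values, and a chaperonin listed at 0 in wing discs, and any point under 0.1, is not drawn. *Hsp70Bb* and *Hsp22* lie above the line, and the well expressed members of the other families lie along it.

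Per kb of longest transcript the order of the 8 genes in eye discs was *Hsp23*, *Hsp27*, *Hsp83*, *Hsp26*, *DnaJ-1*, *Hsp70Bb*, *Hsp68* and *Hsp22*. In wing discs *Hsp70Bb* stood before *DnaJ-1*, and *Hsp22* before *Hsp68*, while the first 4 places were the same. With the mean transcript length or the coding length *Hsp22* stood before *Hsp68* in eye discs too, so that only the exchange of *Hsp70Bb* and *DnaJ-1* between the tissues held for all 3 lengths. The level of the highest gene, *Hsp23*, was 607 times that of the lowest, *Hsp22*, in eye discs and 543 times that of the lowest, *Hsp68*, in wing discs. With the coding length *Hsp23* was 264 times as high as *Hsp22* in eye discs, and in both tissues *Hsp27* was then the highest and *Hsp68* the lowest gene. As there is 1 mean for each gene and tissue, no spread stands beside these levels, and whether neighbours in the order differ could not be tested.

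The tables of both tissues were set against each other by scaling the median ratio of wing over eye discs to 1 over the 9465 genes with a mean of at least 10 in both, which all 8 members had. Tissue, driver and the number of discs differ together between the tables, and the means pool both genotypes, so that these cannot be told apart in a ratio. Lanes were not balanced between the tissues either. All 3 wing libraries with *fuss* were on lane 5, whereas each eye group had 1 library on lane 5 and 2 on lane 6. Of the 9465 genes, 13.6% were past 2-fold in either direction, 4.51% higher in wing discs and 9.04% lower. Of the 8 members, *Hsp70Bb* and *Hsp22* were past 2-fold, both higher in wing discs, and 0 were lower past 2-fold. With *Hsp22* summed with *CG4456*, whose exons it shares, its ratio was 1.65 and only 1 of the 8 members, *Hsp70Bb*, was past 2-fold. The ratio of *Hsp70Bb* was exceeded by 0.887% of the 9465 genes and that of *Hsp22* by 3.38%.

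The other 6 members had ratios below 1, beside 50.0% of the 9465 genes, a share that the scaling sets. With so few genes, this count does not set the members apart. The median of the 8 genes was 0.845. In order, *Hsp68* had a ratio of 0.689, *Hsp26* of 0.741, *DnaJ-1* of 0.744, *Hsp23* of 0.804, *Hsp27* of 0.887 and *Hsp83* of 0.961. Expressed the other way round, *Hsp68* was 1.45 times, *Hsp26* 1.35 times, *DnaJ-1* 1.34 times and *Hsp23* 1.24 times as high in eye discs as in wing discs. Of the 9465 genes, 86.4% had a higher ratio than *Hsp68* and 59.1% a higher ratio than *Hsp83*. Without rescaling of the tables the ratios of *Hsp27* and *Hsp83* were 1.01 and 1.09, so that only *Hsp68*, *Hsp26*, *DnaJ-1* and *Hsp23* were below 1 under all scalings tried.

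**Figure D5:**
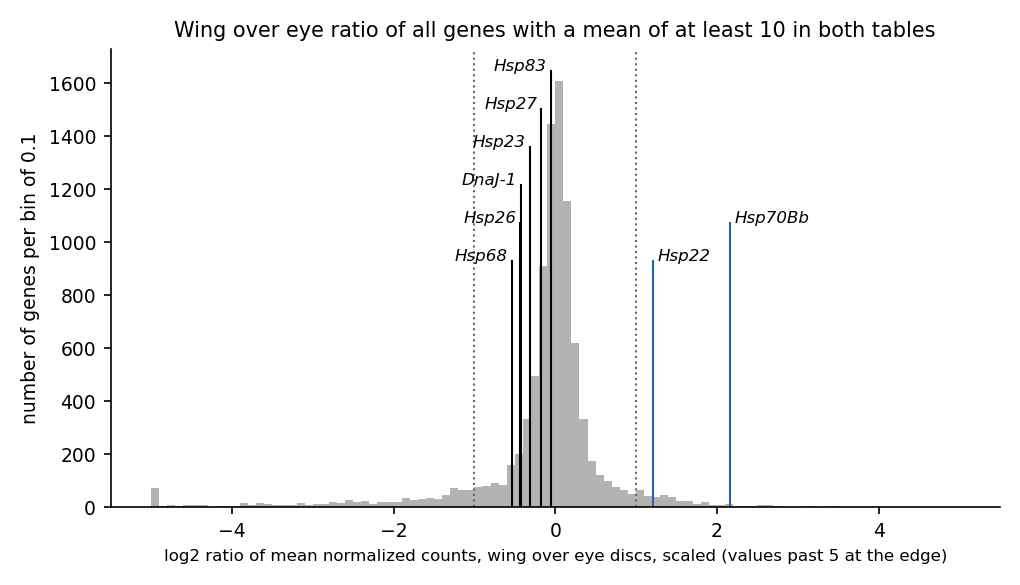
Number of genes (y axis) by the log2 ratio of the authors' mean normalized counts, wing over eye discs, scaled to a median of 0 (x axis), for the 9465 genes with a mean of at least 10 in both tables. Vertical lines mark the 8 heat shock protein genes and dotted lines a 2-fold ratio; *Hsp22* at 1.21 and *Hsp70Bb* at 2.17 lie past the right dotted line and the other 6 lie left of 0.

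Markers of other tissues and cell types also differed between the tables. Of the fat body genes, *Fbp1* had means of 52476 in eye discs and 160688 in wing discs and *Lsp2* had 26034 and 71733, and both were higher in wing discs past 2-fold, with scaled ratios from 2.42 to 2.69. Both muscle genes were also higher in wing discs, with ratios from 2.46 to 3.48, as were both tracheal genes, with ratios from 2.66 to 11.4, and 1 of 2 myoblast genes, *twi*, with 11.2. Of the 3 haemocyte genes 2 were lower in wing discs past 2-fold, with ratios of the 3 genes from 0.282 to 0.583, and the glial gene *repo* was lower, with a ratio of 0.0145. None of these markers was at 0 in either tissue. Their part in the ratios of *Hsp70Bb* and *Hsp22* was not tested.

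The members also share features of gene structure that their choice by name did not use. *Hsp23*, *Hsp26*, *Hsp27*, *Hsp68* and *Hsp70Bb* are annotated only with transcripts of a single exon. *Hsp22* and *DnaJ-1* each have at least 1 such transcript, and *Hsp83* is the only member without one. Among the 8856 protein-coding genes with a mean of at least 10 in both tissues, 784, or 8.85%, have single-exon transcripts only. Of the 8 genes 6 lie on 3L and 2 on 3R, where 19.3% and 24.4% of those protein-coding genes lie, and 4 of the 6 on 3L are neighbours in the 67B cluster. The longest transcripts run from 884 bases for *Hsp23* to 2960 bases for *Hsp83*, and the coding lengths from 522 bases for *Hsp22* to 2151 bases for *Hsp83*.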

How the data were processed

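RNA of pooled discs was sequenced in 12 libraries, 6 for each tissue, and samples were grouped by tissue and genotype from their labels. According to the submitters' processing notes and the paper, the authors ran Salmon 1.1.0 on BDGP6.22, tximeta and DESeq2 1.30.0, and each deposited table was normalized separately. The mean normalized count, a signal normalized by the authors with DESeq2 and taken over the 6 libraries of a tissue, was used as deposited. The other 5 columns of each deposited table hold the authors' own comparison of the genotypes (log2 fold change, its standard error, statistic, p-value and adjusted p) and were not used here. No comparison of *fuss* overexpression with control is therefore reported, and no SD, n or test stands beside a mean. Depth and error of single libraries are unknown, and no label tells if pools were from separate crosses. In each group 1 library was sequenced on lane 5 and 2 on lane 6, except that all 3 wing libraries with *fuss* were on lane 5.

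Of the 17208 identifiers, 17083 were found in the BDGP6.54 annotation, which gave names, positions, exons and transcript lengths, and 679 rows carry a symbol that differs from its name for the identifier. It is a later annotation than that of the authors. Percentiles are among genes with a mean of at least 1. The means of wing discs were divided by 1.14, the median ratio over genes with a mean of at least 10 in both tables, before ratios were taken. A ratio past 2-fold was counted. The alternatives were no rescaling, the same summed mean, a trimmed mean of log2 ratios, a minimum of 100, a pseudocount of 1, a 1.5-fold threshold, other minimums for the percentiles and other lengths. The genes named are the 8 members, all Hsp70 copies, the 67B cluster and, of other chaperone lists, the 3 genes of highest mean in each table. Members and lists were chosen with earlier results of these data known. Sequences were not used here. Calculations used pandas 2.3.3 and numpy 2.4.6 in Python 3.11.15, and figures used matplotlib 3.10.9.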

Additional observations from a re-analysis of the deposited data

How the results depend on the processing

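All 40 alternatives of the ratios of the 8 genes, 5 for each gene, stayed within 1.5-fold of the values given. The farthest was 1.14-fold away, without rescaling, which moved the median of all genes by 0.18 on the log2 scale. Apart from the pseudocount, each setting divides all genes by 1 common factor, so that the 8 genes move alike. A pseudocount of 1 changes little where the lowest mean of a member is 227. These are therefore not 40 separate checks. The median ratio of the 8 genes ran from 0.840 to 0.961. The number of genes past 2-fold was 2 under each planned scaling, and 2 were past 1.5-fold. The lower minimum could not change this number, because all 8 genes had a mean of at least 10 in both tissues. The number past 2-fold was 1 when *Hsp22* was summed with *CG4456* and 2 with the sum over the Hsp70 copies. Both of these settings were chosen after seeing the data. With the coding length in place of the longest transcript, the median level per kb was 9540.3 in place of 5577 in eye discs and 8217 in place of 5462 in wing discs, because coding lengths are shorter. Of the 16 levels per kb 10 moved past 1.5-fold with it, those of *Hsp22*, *Hsp23*, *Hsp26*, *Hsp27* and *DnaJ-1*, and the largest move was 3.64-fold, for *Hsp22*. No paired analysis was possible because the values used are means over all libraries of a tissue, and for the same reason no library could be left out. The planned search for heat shock elements (2 alternatives) and for transcript words shared with other genes (1 alternative) was not run, because no sequence was used here. Ratios are not given for the copies of Hsp70 with means below 10. Such means are low, and how reads were shared out among the near-identical copies is uncertain.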

Other observations

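Among genes of the same families that were measured at low level, 3 small heat shock genes stood near 0 in eye discs. *CG4461* had means of 1.02 in eye discs and 44.6 in wing discs, *CG7409* had 1.46 and 5.31, and *CG13133* had 0.143 and 0.368. *Hsc70-1* had 3.91 in eye discs and 8.22 in wing discs, and *Hsc70-2* had 3.79 and 1.07. These genes were chosen after their values were seen, and no ratio is given because at least 1 of both means is below 10.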
